A study of Rattus norvegicus with 4 samples.

Results

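The axon guidance ligands and receptors described here are the semaphorins with their plexin and neuropilin receptors, the ephrins with their Eph receptors, the Slits with their Robo receptors, and the netrins with Dcc and the Unc5 receptors. They were chosen by gene symbol: a probe was taken where its accession belongs to a rat gene of one of these families, and the netrin-G genes were left out. In the RefSeq gene table, 69 genes meet this rule, and 53 of them had a probe on the array (68 probes: 38 genes with 1 probe and 15 with 2). A gene is represented by its brightest probe. A filter on dim probes, which asked for a Cy5 signal well above background on at least 2 arrays, kept 51 of the 53, of 22821 genes kept in all. Of these 22821, 13940 had a gene symbol, and the rest were accessions without one. Shares of all genes given below run over all 22821, so they set named genes beside a mixed background. The 51 were well above background in Cy5 on all 4 arrays, and 50 of them in Cy3 on all 4 arrays as well; the exception was Ntn3. The co-receptor Nrp2 and the ephrin receptor Epha1 did not pass, and no value is given for them.

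The study hybridised RNA from the spinal dorsal horn of male rats aged 6 weeks, sampled on day 10, to 4 Agilent arrays with a channel for each of 2 dyes. Cy5 is labelled as RNA of oxaliplatin-treated rats on 2 arrays and of vehicle-treated rats on the other 2, and Cy3 is labelled as untreated on every array. Oxaliplatin is a platinum chemotherapy drug whose dose-limiting side effect is a painful peripheral neuropathy; dose and schedule are not given in the sources used here, nor is whether an extract came from 1 rat or from a pool. The labels call the arrays of a group biological replicates, and p-values measure the spread between these samples only. Between 82.6% and 85.4% of probes were well above background in Cy5 and between 76.8% and 88.1% in Cy3, where oxaliplatin replicate 2 was the dimmest (median signal 283.5, against 494 to 564 on the other arrays). Both oxaliplatin arrays lay on slide 1 and both vehicle arrays on slide 2, so slide and treatment cannot be told apart, and no dyes were swapped, so any Cy5 to Cy3 difference includes the effect of the dye.

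Guidance cues steer growing axons by attraction or repulsion: secreted or membrane-bound ligands bind receptors on the growth cone, and signalling inside the cell reshapes its cytoskeleton. Ephrins of class A are tethered to the membrane by a lipid anchor and mainly bind EphA receptors, ephrins of class B span the membrane and mainly bind EphB receptors, and both sides of the pair can signal. In the adult spinal cord several of these genes stay on in neurons and glia, and EphB receptors in the dorsal horn are known for modulating NMDA receptors and pain behaviour.

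The RNA of the 2 channels differed in marker genes of several tissues on every array of both groups. Markers of sensory ganglion neurons were higher in Cy5, with a median log2 Cy5/Cy3 ratio of 4.67 (8 of 8 measured genes of a list of 10 passed the test against 0). On the 4 arrays the list's median ratio was 4.93 and 4.08 for oxaliplatin and 4.37 and 4.78 for vehicle, and its summed log2 signal was 17.40 to 17.62 in Cy5 against 12.96 to 13.81 in Cy3. Schwann cell markers (7 of 7, median 2.69), forebrain markers (7 of 7, median 3.97) and meningeal fibroblast markers (6 of 6, median 2.16) were higher in Cy5 as well. In the other direction, 8 of 8 oligodendrocyte markers (median -1.49), 4 of 4 motor neuron markers (median -0.62) and 3 of 3 measured Hox genes of spinal position (median -1.19) were lower in Cy5. Dorsal horn neuron markers were mixed: 2 of 8 were higher, 4 lower, and their median was -0.11. The remaining lists were general neurons (5 of 7 higher and 1 lower, median 1.28), astrocytes (1 of 7 higher and 5 lower, median -0.96), oligodendrocyte precursors (3 of 4 lower, median -0.32), microglia (1 of 6 higher and 3 lower, median -0.22) and endothelium (2 of 5 higher and 1 lower, median -0.10). No marker with a probe was at background on every array in either channel. The part of these cell mixtures in the values below was not tested.

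**Figure D1:**
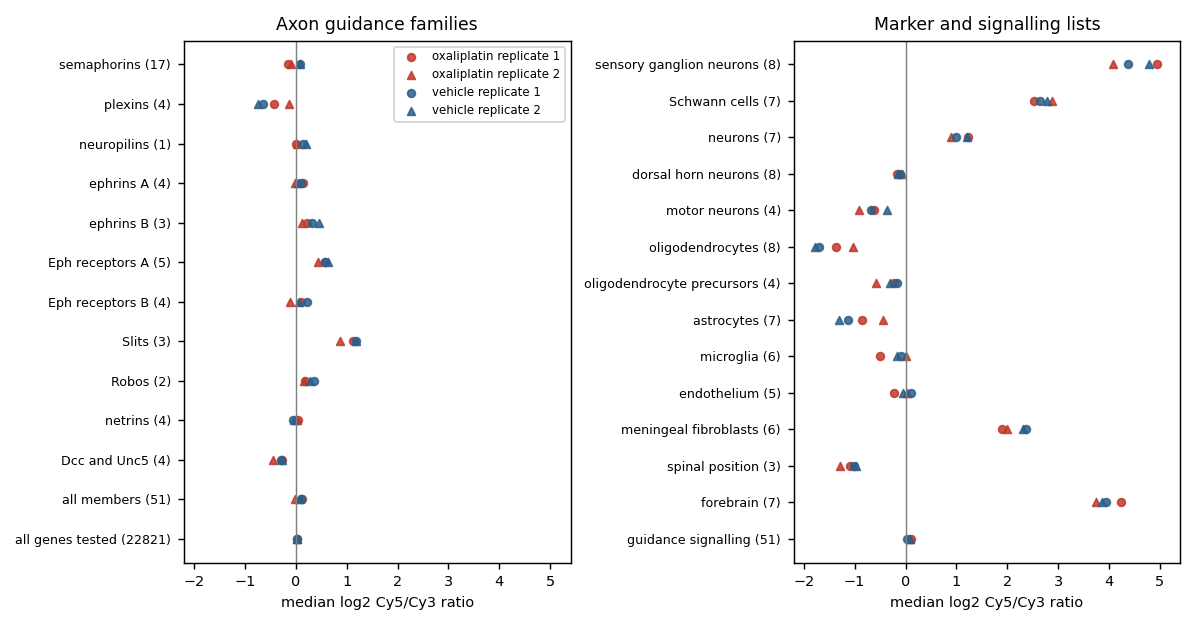
Median log2 Cy5/Cy3 ratio of each guidance family (left) and of each marker and signalling list (right), a point per array (red oxaliplatin, blue vehicle; circle replicate 1, triangle replicate 2) and, in parentheses, the genes measured. Family medians lie between -0.74 and 1.19 on every array, while the sensory ganglion list lies above 4 and the oligodendrocyte list below -1 on every array.

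The first comparison asks whether the Cy5/Cy3 ratio of the guidance genes differed between oxaliplatin and vehicle arrays. None of the 51 passed the test after adjustment over all genes (limma, Benjamini-Hochberg adjusted p under 0.05), where 0% of the 22821 genes did; the smallest adjusted p of a member was 0.294. At an unadjusted p under 0.05 there were 7 members (13.7%), close to the 14.6% of all genes: 4 were higher on the oxaliplatin arrays (7.84%, beside 8.79%) and 3 lower (5.88%, beside 5.85%). The ratios of the groups did not overlap for 26 members (51%), beside 49.2% of all genes; 13 lay higher (25.5%, beside 27%) and 13 lower (25.5%, beside 22.2%) on the oxaliplatin arrays. The median difference of the members, oxaliplatin minus vehicle, was -0.03 on the log2 scale, beside 0.01 over all genes, and 29 members were below 0 (56.9%, beside 48.8%). With 2 arrays a group the standard error of a member's difference ran from 0.11 (Ntn1) to 0.29 (Sema4b). The count rests on the arrays used: without oxaliplatin replicate 1, 4 members passed (Sema4b at -0.96, named after its values were seen, Sema6d at 0.63, Plxnb2 at 0.70 and Plxnb3 at 0.65), and without any other array none did.

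**Figure D2:**
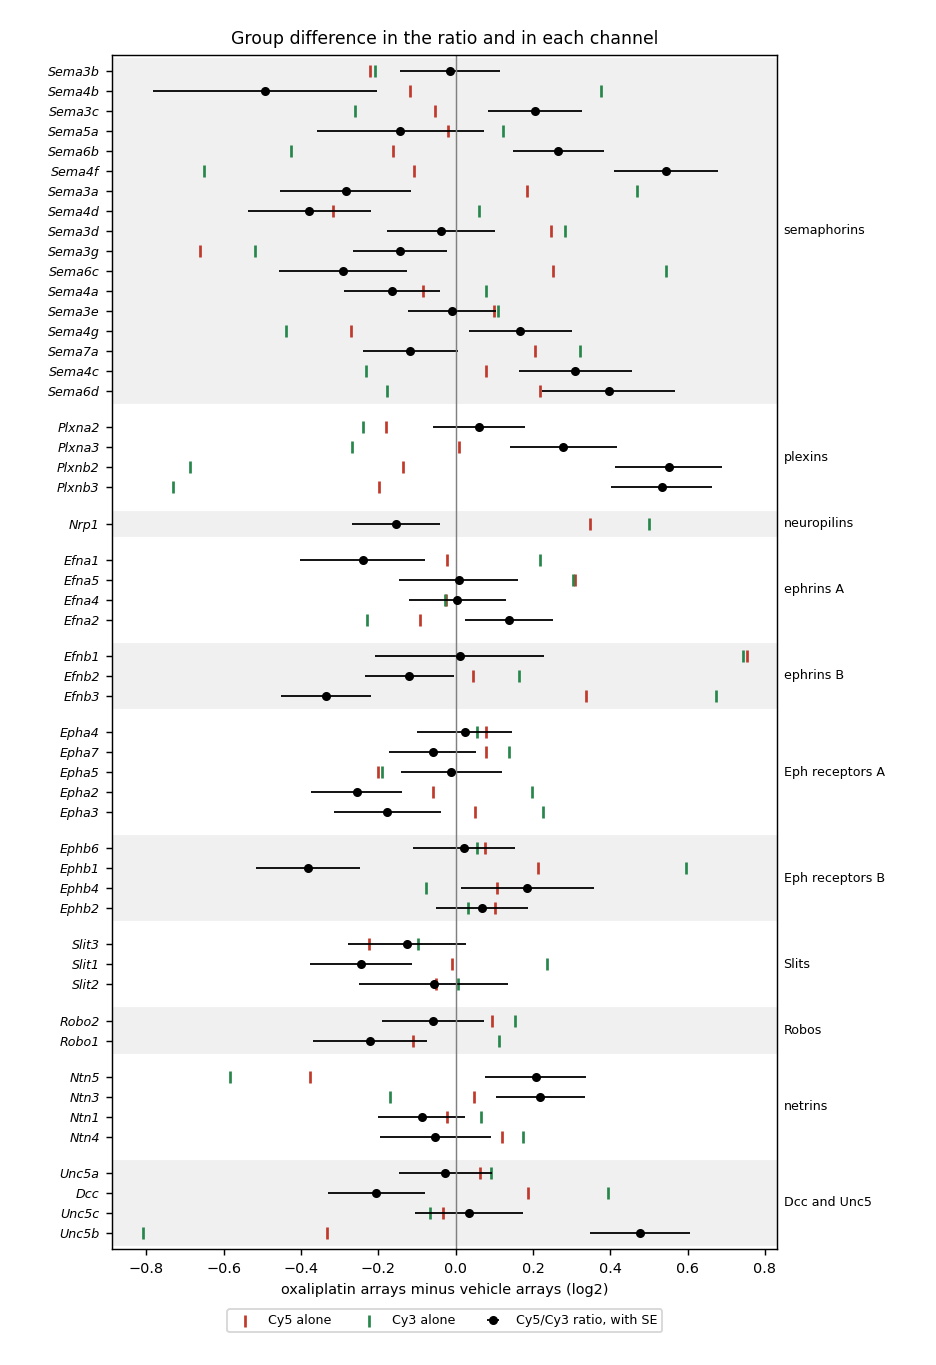
Difference between oxaliplatin and vehicle arrays (log2) for the 51 measured guidance genes, ordered by family: black points with bars are the Cy5/Cy3 ratio and its standard error, red and green ticks the Cy5 and the Cy3 signal alone. The ratio differences lie between -0.49 and 0.55, and for 37 of the 51 genes the green tick is farther from 0 than the red.

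Among the semaphorins, 17 of 20 genes were measured; 6 had a positive and 11 a negative ratio difference, with a median of -0.04 that turned to 0.01 when arrays were centred on their median. Sema4f, a membrane semaphorin, had the lowest unadjusted p of the family. Its log2 ratio was 0.48 and 0.54 on the oxaliplatin arrays and 0.11 and -0.17 on the vehicle arrays, a difference of 0.54 ± 0.13 (SE; unadjusted p = 0.00541, adjusted p = 0.294). The groups did not overlap, and both oxaliplatin arrays were higher. Sema4d, a membrane semaphorin made by oligodendrocytes and immune cells that signals through B-type plexins, had ratios of -0.16 and -0.01 on the oxaliplatin arrays and 0.10 and 0.49 on the vehicle arrays. Its difference was -0.38 ± 0.16 (SE; unadjusted p = 0.0499, adjusted p = 0.341), the groups did not overlap, and vehicle replicate 2 stood highest; the difference was -0.18 without that array and -0.57 without vehicle replicate 1.

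Sema3a, the secreted repellent that binds neuropilin-1 and collapses growth cones of sensory axons, had ratios of 0.25 and -0.14 under oxaliplatin and 0.21 and 0.47 under vehicle. Oxaliplatin replicate 1 fell between the vehicle arrays, so the groups overlapped, and the difference was -0.28 ± 0.17 (SE; adjusted p = 0.467). Without oxaliplatin replicate 2 it was -0.09, and without oxaliplatin replicate 1 it was -0.48. Sema6d, a transmembrane semaphorin, had ratios of -0.63 and -0.15 against -0.83 and -0.74. The difference of 0.40 ± 0.17 (SE; adjusted p = 0.351) came with groups that did not overlap, but oxaliplatin replicate 2 was far above the other 3 arrays. Without it the difference was 0.16 (0.63 without oxaliplatin replicate 1). The second Sema6d probe gave a difference of 0.06, with overlapping groups. Sema3b, a secreted semaphorin, differed by only -0.01 ± 0.13 (SE). The other 12 semaphorins had differences between -0.49 (Sema4b) and 0.31 (Sema4c).

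Plexins are the signalling receptors of the semaphorins. All 4 measured plexins, of 9, had a positive ratio difference (median 0.41, and 0.30 to 0.49 under the other normalisations), as 51.2% of all genes did. The groups did not overlap for 3 of them, all higher on the oxaliplatin arrays, as were 27% of all genes. Plxnb2 had ratios of -0.43 and -0.14 on the oxaliplatin arrays and -0.80 and -0.88 on the vehicle arrays. Plxnb3 had ratios of -1.15 and -0.92 against -1.52 and -1.62. Both oxaliplatin arrays were above both vehicle arrays for each gene. The differences were 0.55 ± 0.14 for Plxnb2 and 0.53 ± 0.13 for Plxnb3 (SE). By limma the unadjusted p was 0.00569 and 0.00506, and the adjusted p was 0.294 for both. Plxnb3 is expressed mainly by oligodendrocytes, and the oligodendrocyte marker list had a median difference of 0.40 in the same direction. Of its 8 genes, 7 were above 0 (51.2% of all genes were) and 4 had an unadjusted p under 0.05 (50%, beside 14.6%). The astrocyte list had a median difference of 0.42. Of 7 general neuron markers, 4 had an unadjusted p under 0.05, 3 higher and 1 lower, and the list's median difference was -0.03. Sema4d, named above as made by oligodendrocytes, went the other way (-0.38). The summed log2 signal of the oligodendrocyte list was 18.57 to 18.61 in Cy3 on the oxaliplatin arrays and 18.98 to 19.17 on the vehicle arrays, against 17.36 to 17.52 and 17.39 to 17.42 in Cy5. Whether this list has a part in the plexin values was not tested, and in such tissue RNA fewer cells of a type and less RNA per cell cannot be told apart.

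Plxna2 differed by 0.06 ± 0.12 (SE), with overlapping groups. Nrp1, the co-receptor that carries secreted class 3 semaphorins to A-type plexins, had ratios of 0.01 and 0.03 under oxaliplatin and 0.14 and 0.21 under vehicle. Its groups did not overlap, with vehicle higher, and the difference was -0.15 ± 0.11 (SE; adjusted p = 0.551).

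Of the ephrins, the 3 class B ligands were all measured and the class A ligands in 4 of 5 cases. Efnb3 had ratios of 0.05 and 0.04 on the oxaliplatin arrays and 0.31 and 0.45 on the vehicle arrays. Its replicates were close together under oxaliplatin, the groups did not overlap, and the difference was -0.34 ± 0.12 (SE; unadjusted p = 0.0251, adjusted p = 0.308). Efnb2, whose product is a ligand of EphB receptors and EphA4, had ratios of 0.22 and 0.12 against 0.30 and 0.27. The groups did not overlap, with a difference of -0.12 ± 0.11 (SE; adjusted p = 0.654). Efnb1 ratios were 2.02 and 1.38 against 1.82 and 1.56, so the oxaliplatin arrays lay on either side of the vehicle arrays, and the difference was 0.01 ± 0.22 (SE). Among the class A ephrins the differences ran from -0.24 (Efna1) to 0.14 (Efna2), none with an unadjusted p under 0.05. The Efna1 value rests on a single array: its ratio was 0.54 on vehicle replicate 2 and 0.07 to 0.11 on the other 3, and without that array the difference was -0.02.

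The EphA receptors were measured in 5 of 9 cases. Epha2, a receptor of class A ephrins, had ratios of 0.41 and 0.28 under oxaliplatin and 0.57 and 0.63 under vehicle. These groups did not overlap, and the difference was -0.26 ± 0.12 (SE; adjusted p = 0.371); its second probe gave 0.11. Epha3 differed by -0.18 ± 0.14 (SE). Epha4, a receptor of both ephrin classes that keeps spinal axons from recrossing the midline, differed by 0.02 ± 0.12 (SE), and its second probe by -0.30. By their brightest probes, Epha2 alone of these 3 receptors had groups that stood apart. The second Epha4 probe had ratios of 1.71 and 1.37 on the oxaliplatin arrays and 1.82 and 1.85 on the vehicle arrays. Its groups did not overlap, while those of the second Epha2 probe did.

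Of the EphB receptors, 4 of 5 were measured. Ephb1, which is known for its role in dorsal horn pain signalling, had ratios of 0.12 and -0.14 on the oxaliplatin arrays and 0.41 and 0.33 on the vehicle arrays. The vehicle arrays were both higher, and the difference was -0.38 ± 0.13 (SE; unadjusted p = 0.0255, adjusted p = 0.308). The second Ephb1 probe went the other way, with a difference of 0.37, so the gene has no settled direction. Ephb2 differed by 0.07 ± 0.12, Ephb4 by 0.19 ± 0.17 and Ephb6, a receptor without kinase activity, by 0.02 ± 0.13 (SE), each with overlapping groups. Over all families, 10 of the 15 genes with 2 probes had differences of opposite sign from their probes.

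Slits are large secreted repellents and Robos their receptors. Slit1 had ratios of 1.12 and 0.87 on the oxaliplatin arrays and 1.19 and 1.29 on the vehicle arrays. The groups did not overlap, and the difference was -0.25 ± 0.13 (SE; adjusted p = 0.432). Slit2 differed by -0.06 ± 0.19 and Slit3 by -0.13 ± 0.15 (SE), with overlapping groups, and both turned above 0 under median centring. The second Slit2 probe had ratios of 0.43 and 0.22 on the oxaliplatin arrays and 0.56 and 0.63 on the vehicle arrays. Those groups did not overlap, and the difference was -0.27. Robo1, a Slit receptor of commissural axons, had ratios of -0.10 and -0.40 against 0.07 and -0.13, a difference of -0.22 ± 0.15 (SE; adjusted p = 0.514). Robo2 differed by -0.06 ± 0.13 (SE). By these probes the groups stood apart for neither Robo. The second Robo2 probe had ratios of 0.99 and 0.84 on the oxaliplatin arrays and 0.54 and 0.67 on the vehicle arrays. Its groups did not overlap, and its difference was 0.31.

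Netrins attract axons through Dcc and repel them where Unc5 receptors take part. Unc5b had ratios of -0.76 and -0.56 on the oxaliplatin arrays and -1.21 and -1.07 on the vehicle arrays. Both oxaliplatin arrays were higher, with a difference of 0.48 ± 0.13 (SE; unadjusted p = 0.00845, adjusted p = 0.294). Dcc had ratios of -0.28 and -0.35 against -0.21 and -0.01, lower on both oxaliplatin arrays, with a difference of -0.21 ± 0.13 (SE; adjusted p = 0.476). Unc5a (-0.03 ± 0.12) and Unc5c (0.03 ± 0.14) differed by less than their standard errors. The second Unc5c probe had ratios of -0.37 and -0.24 on the oxaliplatin arrays and -0.20 and -0.12 on the vehicle arrays. Those groups did not overlap, and the difference was of the other sign, -0.15. Of the ligands, Ntn1, the canonical floor plate netrin, differed by -0.09 ± 0.11, Ntn4 by -0.05 ± 0.14, Ntn3 by 0.22 ± 0.12 and Ntn5 by 0.21 ± 0.13 (SE). No netrin had an unadjusted p under 0.05, and the signs of Ntn3 and Ntn5 turned under median centring (-0.25 and -0.22). Netrin values moved with the normalisation: Ntn1 was -0.50 under median centring, and under the software's log ratio Ntn1 was -0.55, Ntn3 0.58, Ntn5 0.53 and Ntn4 -0.22.

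The second comparison takes each channel alone, to see where the ratio differences lie. In Cy5, the channel labelled with the treated rats, 0 of 51 members passed (0% of all genes), 11 had an unadjusted p under 0.05 (21.6%, beside 20.5%), and the groups did not overlap for 31 (60.8%, beside 59.8%), 17 of them higher on the oxaliplatin arrays (33.3%, beside 29.6%) and 14 lower (27.5%, beside 30.2%). In Cy3, labelled untreated on every array, 0 of 51 passed (0% of all genes), 14 had an unadjusted p under 0.05 (27.5%, beside 20.9%), and the groups did not overlap for 32 (62.7%, beside 58.1%), 17 of them higher (33.3%, beside 26.9%) and 15 lower (29.4%, beside 31.3%). The Cy3 difference was larger in size than the Cy5 difference for 37 members (72.5%), beside 68.7% of all genes. The SD over the members was 0.36 for the Cy3 difference and 0.22 for the Cy5 difference, beside 0.48 and 0.36 over all genes. So the guidance genes, like the array as a whole, differed at least as much between the arrays in the untreated channel as in the treated channel. These counts also rest on single arrays: without vehicle replicate 1, 10 members passed in Cy5 and 4 in Cy3, and without vehicle replicate 2, 1 passed in Cy5.

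Plxnb3 shows the pattern. Its log2 Cy5 signal was 10.22 and 10.22 on the oxaliplatin arrays and 10.33 and 10.51 on the vehicle arrays, while its log2 Cy3 signal was 11.37 and 11.14 against 11.85 and 12.12. The treated channel differed by -0.20 ± 0.09 and the untreated channel by -0.73 ± 0.18 (SE), so the higher ratio under oxaliplatin came with lower values in both channels. Plxnb2 did the same, with -0.14 ± 0.11 in Cy5 and -0.69 ± 0.20 in Cy3. Sema4f differed by -0.11 ± 0.14 in Cy5 and -0.65 ± 0.23 in Cy3. Unc5b had Cy5 values of 8.03 and 7.95 against 8.20 and 8.44, and Cy3 values of 8.80 and 8.51 against 9.42 and 9.51. For all 4 genes with a positive ratio difference at an unadjusted p under 0.05, then, the Cy5 difference was below 0. The Unc5b groups did not overlap in either channel, with differences of -0.33 ± 0.11 in Cy5 (SE; adjusted p = 0.226) and -0.81 ± 0.17 in Cy3 (SE; adjusted p = 0.164).

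**Figure D3:**
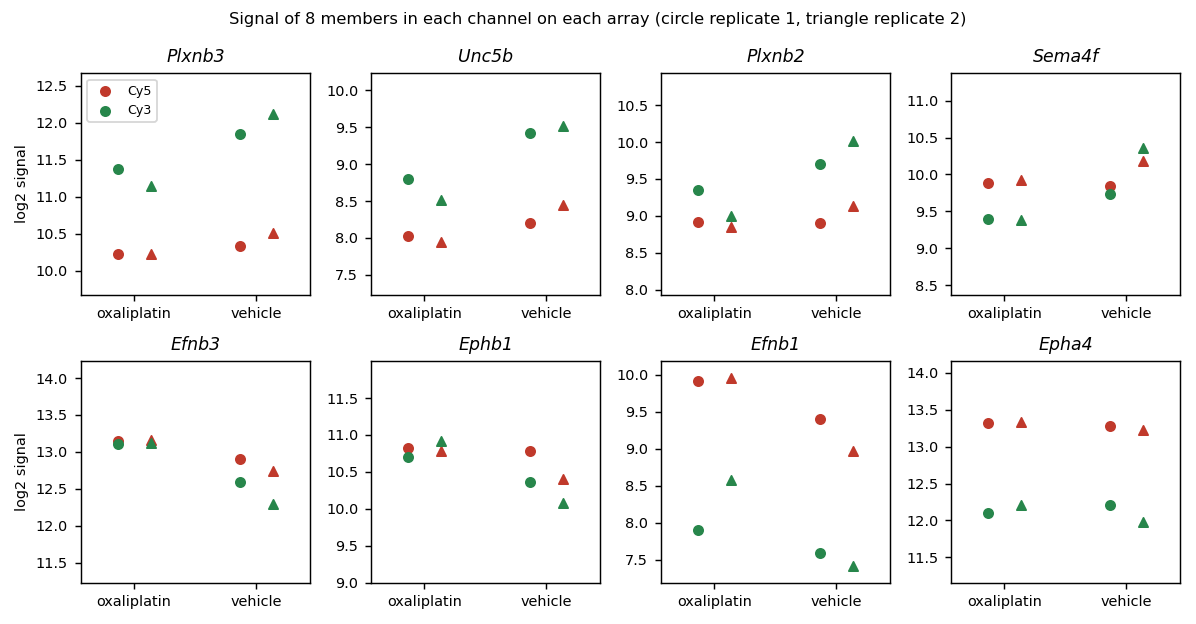
Log2 signal of 8 guidance genes on the 4 arrays, red for Cy5 and green for Cy3, circles for replicate 1 and triangles for replicate 2; every panel spans 3 log2 units. In the upper row the green points are lower on the oxaliplatin arrays by more than the red, in Efnb3 and Ephb1 they are higher there, in Efnb1 both colours are higher, and in Epha4 the red points stay above the green on every array.

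The mirror image was seen for 2 of the 3 genes with a negative ratio difference at an unadjusted p under 0.05. Efnb3 was higher on the oxaliplatin arrays by 0.34 ± 0.09 in Cy5 and by 0.67 ± 0.17 in Cy3 (SE), and Ephb1 by 0.21 ± 0.15 and 0.59 ± 0.18. For Ephb1 this holds for the brightest probe only, because the ratio difference of its second probe was 0.37. Sema4d was different: it was lower in Cy5 (8.36 and 8.36 against 8.64 and 8.73, a difference of -0.32 ± 0.08, SE; adjusted p = 0.186), while Cy3 differed by 0.06 ± 0.17. Of the 7 it was the gene whose ratio difference lay mostly in the treated channel.

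Other members differed in both channels alike, with little difference in the ratio. Efnb1 had a log2 Cy5 signal of 9.92 and 9.96 on the oxaliplatin arrays and 9.40 and 8.97 on the vehicle arrays, and a log2 Cy3 signal of 7.90 and 8.58 against 7.59 and 7.41. Its groups did not overlap in either channel, and the differences were 0.75 ± 0.16 (Cy5; adjusted p = 0.176) and 0.74 ± 0.25 (Cy3; adjusted p = 0.203). Sema3g, named after its values were seen, was lower in both, by -0.66 ± 0.09 in Cy5 and -0.52 ± 0.14 in Cy3 (SE). Nrp1 was higher in both, by 0.35 ± 0.10 and 0.50 ± 0.16. Ntn5 was lower in both, by -0.38 ± 0.16 and -0.58 ± 0.16. Across the 51 genes the Cy5 and Cy3 differences had a correlation of 0.75 (0.86 over all genes); the points share the same 4 arrays and slides, and genes are not independent replicates.

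**Figure D4:**
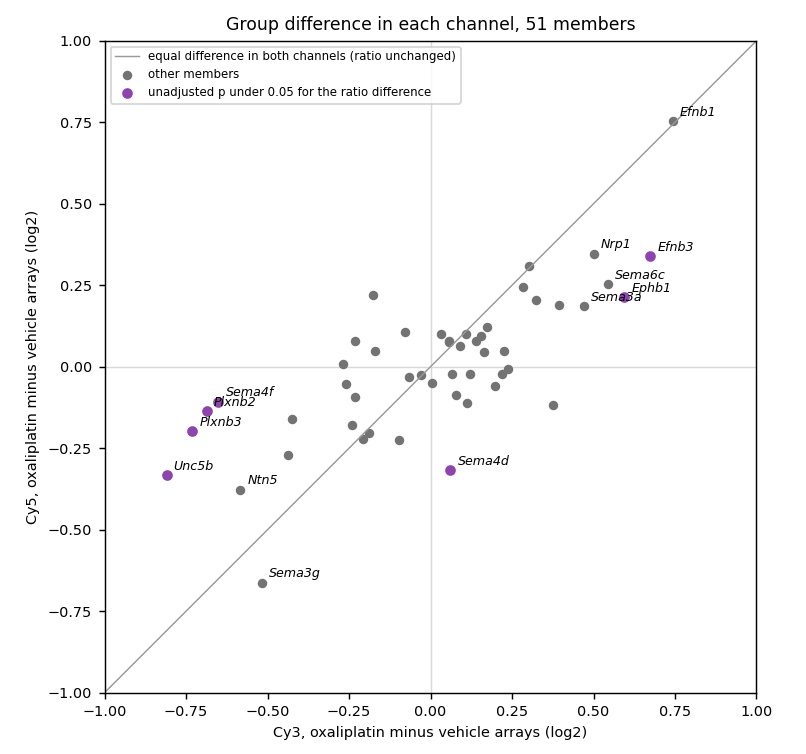
Difference between oxaliplatin and vehicle arrays in Cy3 (horizontal, log2) and in Cy5 (vertical, log2) for the 51 guidance genes; on the diagonal line the ratio is equal in both groups, and purple points have an unadjusted p under 0.05 for the ratio. Sema4f, Plxnb2, Plxnb3 and Unc5b lie far to the left and above the line, Efnb3 and Ephb1 to the right and below it, and Efnb1 and Sema3g near the line at its ends.

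The third comparison sets the ratio, averaged over the groups, against 0, that is, Cy5 against Cy3 on all 4 arrays. The channels differed in 33 of the 51 guidance genes (64.7%; limma, adjusted p under 0.05), beside 55.6% of all genes: 19 were higher in Cy5 (37.3%, beside 29.3%) and 14 lower (27.5%, beside 26.3%). Whatever the test, 31 had a mean ratio above 0 (60.8%, beside 54.1%). A ratio of at least 1 on the log2 scale in either direction, with an adjusted p under 0.05, was found for 7 members (13.7%), beside 4.65% of all genes. These were Efnb1, Sema3b, Ephb6, Epha4, Slit3 and Slit1 on the Cy5 side and Plxnb3 on the Cy3 side. The ratios of the members were alike from array to array, with correlations between arrays of 0.84 to 0.97 over the 51 genes. The average runs over oxaliplatin and vehicle arrays alike and holds the dye effect, so it is no treatment comparison. With median centring in place of loess, Efna1 (0.44), Ephb1 (0.29), Unc5a (0.22) and Sema6c (0.44, beside -0.22 with loess) passed as higher and Ntn1 (-0.39) and Ntn3 (-0.33) as lower, while Efnb2 (0.17) and Epha3 (0.15) did not pass; with the software's log ratio Sema4f (0.18), Efnb2 (0.19) and Efnb3 (0.17) did not, while Ntn1 (-0.34) and Ntn5 (0.30) passed.

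**Figure D5:**
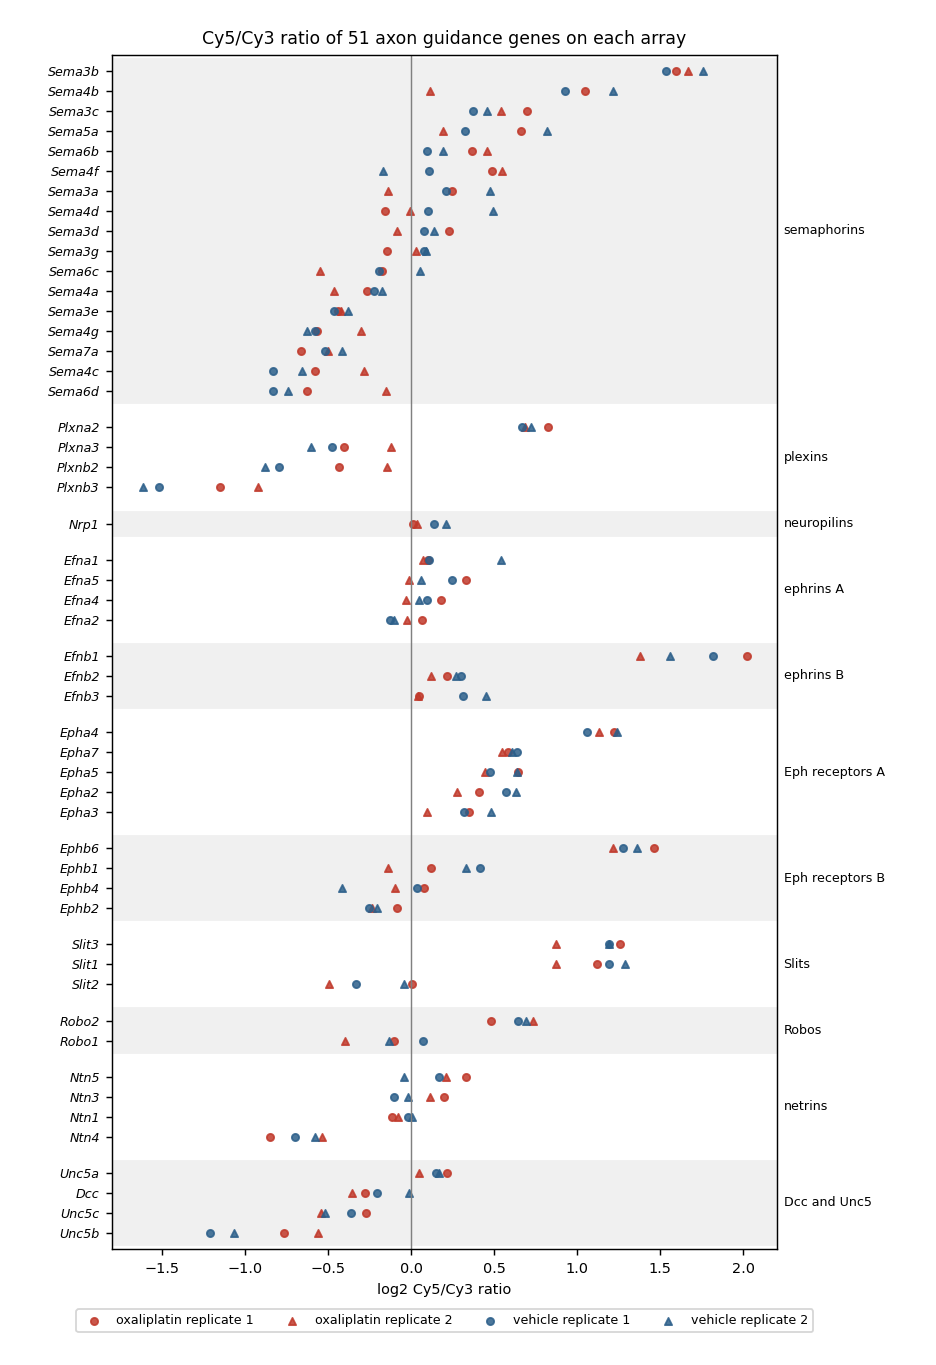
Log2 Cy5/Cy3 ratio of the 51 measured guidance genes on each array (red oxaliplatin, blue vehicle; circle replicate 1, triangle replicate 2), in families and, within a family, in order of the mean. All 5 EphA receptors lie above 0 on every array and Plxnb3 and Unc5b lie below -0.5 on every array.

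Among the ephrins and Eph receptors, 3 of 3 class B ephrins, 0 of 4 class A ephrins, 5 of 5 EphA and 1 of 4 EphB receptors were higher in Cy5 by the test, and 1 EphB receptor was lower. Efnb1 had the highest mean ratio of the set, 1.69 ± 0.11 (SE; 3.24-fold), with 1.38 as its lowest array. Efnb2 (0.23 ± 0.06) and Efnb3 (0.21 ± 0.06) were also higher in Cy5, though neither stayed past the threshold without vehicle replicate 1 (0.22 and 0.25) or without vehicle replicate 2 (0.24 and 0.18). None of the 4 class A ephrins passed, and their mean ratios were -0.05 to 0.21. All 5 EphA receptors were higher in Cy5: Epha4 by 1.16 ± 0.06 (2.24-fold), Epha7 by 0.59, Epha5 by 0.55, Epha2 by 0.47 and Epha3 by 0.31 ± 0.07 (SE), the last not past the threshold without vehicle replicate 2 (0.27).

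Of the EphB receptors, Ephb6 was higher in Cy5 by 1.33 ± 0.07 (2.51-fold), with 1.21 to 1.46 on the arrays. Ephb2 was lower by -0.19 ± 0.06 (adjusted p = 0.0292), a call lost when oxaliplatin replicate 2 (-0.16), vehicle replicate 1 (-0.18) or vehicle replicate 2 (-0.21) was left out. Ephb1 (0.18 ± 0.07) and Ephb4 (-0.10 ± 0.09) did not pass. The second probe of Ephb1 had a mean ratio of -0.53.

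Slit1 (1.12 ± 0.07, 2.17-fold) and Slit3 (1.13 ± 0.08, 2.19-fold) were higher in Cy5 by the same amount within error, and on every array. Slit2, made by floor plate and motor neurons in development, did not follow them: its mean ratio was -0.22 ± 0.10 (adjusted p = 0.0959) by the brighter probe and 0.46 by the other. Of the receptors, Robo2 was higher in Cy5 (0.64 ± 0.07, 0.48 to 0.74 on the arrays) and Robo1 did not pass (-0.14 ± 0.07, adjusted p = 0.144). Without oxaliplatin replicate 1, Slit2 (-0.34) and Robo1 (-0.22) passed as lower in Cy5.

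The semaphorins were split by their brightest probes, with 6 higher in Cy5, 6 lower and 5 not past the threshold. Sema4b (0.83) and Sema5a (0.50) were among the 6 higher, but their second probes had mean ratios of -0.03 and -0.16. Sema6c, not past the threshold, had -0.22 by its brighter probe and 0.27 by the other. Sema3b was higher by 1.64 ± 0.06 (3.11-fold), with 1.53 to 1.76 on the arrays. Sema6d was lower by -0.59 ± 0.09, with -0.83 to -0.15 on the arrays. Sema4f was higher by 0.24 ± 0.07, a call lost without vehicle replicate 1 (0.17). Sema3a (0.20 ± 0.08, adjusted p = 0.0858) and Sema4d (0.11 ± 0.08, adjusted p = 0.291) did not pass, and Sema3a passed without oxaliplatin replicate 2 (0.29).

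Of the semaphorin receptors, Plxna2 was higher in Cy5 (0.72 ± 0.06) while Plxnb3 (-1.30 ± 0.07; 2.47-fold higher in Cy3), Plxnb2 (-0.56 ± 0.07) and Plxna3 (-0.40) were lower. Nrp1 did not differ beyond the spread (0.10 ± 0.06, adjusted p = 0.179). Plxnb3 sat on the same side as the oligodendrocyte markers, whose median ratio was -1.49. The Hox (-1.19), astrocyte (-0.96) and motor neuron (-0.62) lists had medians below 0 too. So did, closer to 0, the oligodendrocyte precursor, microglia, dorsal horn neuron and endothelium lists. Sema4d, also made by oligodendrocytes, was not lower in Cy5 (0.11 ± 0.08, adjusted p = 0.291). The part of any cell type in these values was not tested.

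The netrin receptors were lower in Cy5 or did not pass. Unc5b was lower by -0.90 ± 0.06 (1.87-fold higher in Cy3), Unc5c by -0.42 ± 0.07 and Dcc by -0.21 ± 0.06 (adjusted p = 0.0249), and Dcc lost its call without oxaliplatin replicate 2 (-0.19) or vehicle replicate 1 (-0.16). Unc5a did not pass (0.15 ± 0.06, adjusted p = 0.0776), but did without oxaliplatin replicate 2 (0.19). Among the ligands, Ntn4, a netrin of basement membranes, was lower in Cy5 (-0.67 ± 0.07, and -1.26 with the software's log ratio). Ntn1 (-0.05 ± 0.06), Ntn3 (0.05 ± 0.06) and Ntn5 (0.17 ± 0.06) did not pass with loess. These 3 depend on the normalisation: Ntn1 passed as lower with the software's log ratio (-0.34) and median centring (-0.39), Ntn3 as lower with median centring (-0.33), and Ntn5 as higher with the software's log ratio (0.30) and without background correction (0.19).

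Promoter sequence is shown for genes near the ends of the order of mean ratios, to show the start regions of members whose channels differed most: Efnb1 and Ephb6, ranks 1 and 3 from the Cy5 end (Sema3b is rank 2), and Unc5b and Plxnb3, ranks 50 and 51. Each is the 250 bases before the start that the RefSeq promoter table gives (build GRCr8), 5′ to 3′ on the gene's strand. For Plxnb3 that start lies inside the annotated span of the gene, so its window is not set against the others. Capitals mark matches to 3 motifs searched on both strands: GGGCGG (the GC box), ACAAAG (the core letters bound by SOX factors) and TATAAA (the TATA box).
Efnb1, chrX:68297279-68297528, plus strand: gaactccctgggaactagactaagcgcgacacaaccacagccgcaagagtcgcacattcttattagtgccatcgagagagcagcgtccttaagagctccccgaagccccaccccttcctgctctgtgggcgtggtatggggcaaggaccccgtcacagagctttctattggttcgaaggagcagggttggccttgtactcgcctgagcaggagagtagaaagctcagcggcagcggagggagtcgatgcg
Ephb6, chr4:71458382-71458631, plus strand: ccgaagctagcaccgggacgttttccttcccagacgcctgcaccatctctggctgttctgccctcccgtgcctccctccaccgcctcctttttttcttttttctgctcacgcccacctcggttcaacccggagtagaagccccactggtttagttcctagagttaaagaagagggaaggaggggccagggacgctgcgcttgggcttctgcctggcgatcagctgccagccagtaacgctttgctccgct
Unc5b, chr20:29307271-29307520, minus strand: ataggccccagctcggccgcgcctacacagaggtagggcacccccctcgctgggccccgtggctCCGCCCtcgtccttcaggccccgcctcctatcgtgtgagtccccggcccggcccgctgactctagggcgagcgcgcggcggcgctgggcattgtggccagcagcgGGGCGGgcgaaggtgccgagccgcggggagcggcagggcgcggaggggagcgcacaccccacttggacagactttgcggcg
Plxnb3, chrX:156646624-156646873, plus strand: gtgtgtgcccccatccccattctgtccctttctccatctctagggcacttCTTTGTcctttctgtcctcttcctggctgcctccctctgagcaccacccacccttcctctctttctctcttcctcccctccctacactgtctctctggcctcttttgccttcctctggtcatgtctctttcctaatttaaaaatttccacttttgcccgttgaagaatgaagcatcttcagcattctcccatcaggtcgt
The Unc5b window holds 2 GGGCGG matches and 30 CpG dinucleotides, and the Efnb1 and Ephb6 windows hold none of the motifs and 15 and 14 CpG. The Plxnb3 window holds 1 ACAAAG match and 2 CpG. Of 40 measured guidance genes with a promoter in the table, 21 (52.5%) had GGGCGG, 6 (15%) ACAAAG and 0 TATAAA, beside 30.5%, 16.3% and 12.9% of all 33469 promoters of this length; the median count of CpG was 14, beside 5. The guidance genes entered with 1 promoter each and had passed the filter on dim probes. The 33469 were every promoter of the table, measured or not, so the sets are unlike. The matches are letters in a window, not sites.

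Other genes of guidance signalling were taken as a list of 59, of which 51 were measured: receptors of other cues, adaptors, and the regulators and kinases below the receptors. None passed for the ratio difference (0% of all genes), and 16 had an unadjusted p under 0.05 (31.4%, beside 14.6% of all genes). Of these, 13 were higher on the oxaliplatin arrays (25.5%, beside 8.79%) and 3 lower (5.88%, beside 5.85%). The list's median difference was 0.05, with 31 above 0 and 20 below. The list was chosen with earlier results of these data known, so these shares cannot be read as a result about guidance signalling. Fyn, the Src-family kinase that relays semaphorin, ephrin and netrin signals, had the pattern of Plxnb2 and Plxnb3. Its ratio difference was 0.90, with -0.32 in Cy5 and -1.23 in Cy3. Cfl1, the actin-severing protein cofilin, differed by 0.59 in the ratio, -0.19 in Cy5 and -0.78 in Cy3. Not all of the 13 higher genes followed them. Lingo1 differed by 0.51 in the ratio, 0.53 in Cy5 and 0.02 in Cy3, and Omg by 0.36, 0.35 and -0.01. These genes were named after their values were seen. The 3 lower ones, named after their values were seen, were Enah (-0.53), Limk1 (-0.50) and Vav2 (-0.33). Between the channels 17 of the 51 were higher in Cy5 (33.3%, beside 29.3%) and 17 lower (33.3%, beside 26.3%). Chn1, the Rac regulator that acts below Epha4, was higher by 2.21, Rtn4r, the Nogo receptor, by 1.51, and its partner Lingo1 by 1.04, while Chn2 (-1.07) and the kinase Fes (-0.94) were lower.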

How the data were processed

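RNA from 4 hybridisations was measured on 2-colour Agilent rat arrays of 62976 spots (4259 controls). The authors deposited scanner output, with median signal and background intensity per spot and dye, per the file headers from Agilent Feature Extraction 10.7.1.1, whereas version 8.5.1.1 is given per the submitters' processing notes. The authors' deposited log10 ratio, per the file headers the software's own Cy5 over Cy3, was used as an alternative; the deposited value table holds the same log10 ratio (largest gap 0.0050). Array medians of that table were between -0.00492 and 0.

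The median intensity was background-corrected (limma 3.58.1, R 4.3.3; normexp, offset 50), loess-normalised array by array (control spots had weight 0), and scaled with Aquantile for single channels. The plan had left the mean or the median signal open. Outlier spots were left out (5 spots of members), spots of a probe were averaged, and probes were kept with Cy5 well above background on at least 2 arrays. Accessions named 18758 of 30367 probes. log2 values were computed from the deposited intensity and fitted with lmFit and eBayes over 22821 genes, two-sided, with Benjamini-Hochberg adjustment at 0.05; residual df 2, prior df 4.741. The scripts were tested on simulated data.

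Slide 1 held both oxaliplatin arrays (scan 1), slide 2 both vehicle arrays (scans 2 and 3). The number of arrays limits the precision. Replicate numbers do not pair the arrays. Members, marker lists and the signalling list were chosen with earlier results of these data known. Named genes are, per family, the 2 with the smallest unadjusted p and the highest and lowest mean ratio, plus 13 guidance genes taken whatever their values; Nrp2 among them did not pass the filter. Alternatives were the software's log ratio, median centring, no background correction, no filter, the mean over probes, scaling between arrays, quantile normalisation of channels, replicate blocks and leaving out each array.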

Additional observations from a re-analysis of the deposited data

Results flagged for a closer look

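Efna1, a class A ephrin, had a log2 Cy3 signal of 11.57 on vehicle replicate 2, while the other 3 arrays lay between 12.04 and 12.14. The gap to the nearest array, relative to the whole range over the 4 arrays, was beyond Dixon's critical value. The check was made on the Cy3 signal, labelled untreated on every array, of 34 named genes, and this was the single gene past the value; chance gives about 1 in 20.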

How the results depend on the processing

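For the ratio difference, the count of genes called was 0 under the software's log ratio, median centring, no background correction, no filter, the mean over probes and scaling between arrays, and 3 with the replicate number as a block, which moved no member past the threshold. The crossed pairing, added after seeing the data because same-numbered arrays deviated in opposite directions (correlation -0.222), gave 537 genes and 12 members at an unadjusted p under 0.05. Leaving out an array, where the lone array of a group is assumed to vary like the other group, gave 2 to 937 genes, 0 to 4 members called, 3 to 16 members at an unadjusted p under 0.05 and a member median of -0.10 to 0.064. In Cy5 these ranges were 0 to 5576 genes, 0 to 10 members, 2 to 22 members at an unadjusted p under 0.05 and a median of -0.029 to 0.041, and in Cy3 0 to 2311, 0 to 4, 4 to 14 and -0.057 to 0.11.

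Of 34 named ratio differences, 19 kept their sign under every alternative and 15 turned under at least 1; none of the 34 was called with all arrays. With the software's log ratio Sema3b was 0.070, Efnb1 -0.20 and Epha4 -0.0017. With median centring Sema3b was 0.10, Ephb2 -0.18, Ephb4 -0.012, Slit2 0.052, Slit3 0.0050, Robo2 0.080, Ntn3 -0.25, Ntn5 -0.22 and Unc5a 0.11. Without background correction Efnb1 was -0.056; with the mean over probes Epha4 was -0.14, Robo2 0.13 and Unc5c -0.056; with scaled ratios Sema3b was 0.22, Slit3 0.011, Robo2 0.040 and Unc5c -0.038. Leaving out an array moved Sema3b from -0.13 to 0.10, Plxna2 from -0.0092 to 0.13, Efnb1 from -0.31 to 0.33, Epha4 from -0.067 to 0.11, Ephb2 from -0.0061 to 0.14, Ephb4 from -0.041 to 0.41, Ephb6 from -0.10 to 0.15, Slit2 from -0.31 to 0.19, Slit3 from -0.32 to 0.064, Robo2 from -0.19 to 0.068, Ntn4 from -0.21 to 0.10, Unc5a from -0.11 to 0.055 and Unc5c from -0.10 to 0.17. Of 34 mean ratios 29 kept their sign, and 15 of 21 called ones stayed past the threshold throughout. Those that turned were Slit2 (0.12), Ntn3 (-0.33) and Ntn5 (-0.10) with median centring, Ephb1 (-0.17) and Slit2 (0.12) with the mean over probes, and Ephb4 (-0.21 to 0.013) when an array was left out. The cause was not tested.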
